A study of Homo sapiens with 7 samples.

Results

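Alpha and beta tubulin are the 2 subunits of the microtubule, and the 10 isotype genes described here (TUBA1A, TUBA1B, TUBA1C, TUBA4A, TUBB, TUBB2A, TUBB2B, TUBB3, TUBB4B and TUBB6) were taken as a named list of their rows in the count table. They are 4 alpha and 6 beta genes out of 33694 genes in the table. By the deposited gene symbol, 9 were found. TUBB had no deposited symbol and was found by its Ensembl ID, ENSG00000196230. All 10 passed the filter on low counts. HK-2 is an immortalised line from human kidney proximal tubule, labelled wild type. The tested cells had received siRNA against SLC2A2, the gene of the glucose transporter GLUT2 (siGLUT2, 3 libraries, numbered 2, 3 and 4), and their controls a scrambled siRNA (scrambled, 4 libraries, numbered 1, 2, 3 and 4). Both siRNAs were used at 50 nM with a lipid reagent, in medium with serum, and RNA was taken after 96 h. The labels call the libraries biological replicates of 1 cell line. SLC2A2 had a count of 0 in each of the 3 siGLUT2 libraries, and counts of 13, 13, 7 and 17 in the scrambled libraries. That difference passed edgeR's quasi-likelihood test (adjusted p = 0.0085) but missed it without scrambled replicate 4 (adjusted p = 0.0538).

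Tubulin dimers of 1 alpha and 1 beta chain polymerise into the hollow polymer that carries vesicles, shapes the cell and forms the mitotic spindle, the primary cilium and, in kidney tubules, the apico-basal tracks along which transporters are moved. Isotypes of a class are close in sequence and differ mostly in the acidic tail at the end of the chain, which reaches out from the microtubule and is where many motors, binding proteins and modifying enzymes act. Tubulin levels are also set through the stability of the mRNA. When unpolymerised dimers are in excess, TTC5 binds the first residues of a tubulin chain as it leaves the ribosome, and SCAPER and the CCR4-NOT deadenylase then degrade the mRNA being translated.

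The first 12 bases of each coding sequence are shown because they encode the part of the chain that TTC5 reads. They were taken from GENCODE release 29 transcripts, with the start codon in lower case and the following codons in capitals. TUBA1B and TUBA1C had the same 12 bases as TUBA1A, TUBB4B the same as TUBB, and TUBB6 the same as TUBB3.
TUBA1A: atgCGTGAGTGC
TUBA4A: atgCGTGAATGC
TUBB: atgAGGGAAATC
TUBB3: atgAGGGAGATC
TUBB2A: atgCGCGAGATC
TUBB2B: atgCGTGAGATC

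The last 60 coding bases before the stop codon encode the tail. They are shown for 4 beta isotypes: TUBB2A and its closest relative TUBB2B, TUBB and TUBB3.
TUBB2A: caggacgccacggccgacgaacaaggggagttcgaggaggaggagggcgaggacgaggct
TUBB2B: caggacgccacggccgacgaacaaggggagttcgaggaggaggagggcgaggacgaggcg
TUBB: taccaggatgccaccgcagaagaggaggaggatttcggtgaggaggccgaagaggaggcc
TUBB3: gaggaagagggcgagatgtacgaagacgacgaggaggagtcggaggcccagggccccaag
The 60 bases of TUBB2A and TUBB2B were identical at 59 of 60 positions. Over the whole coding sequence TUBB2A and TUBB2B shared 98.1% of bases and TUBA1A and TUBA1B shared 97.2%. The 3′ untranslated ends, which a 3′ counting method reads, were less alike. Over aligned bases, identity was 64.4% between TUBB2A and TUBB2B (ends of 194 and 490 bases) and 48.9% between TUBA1A and TUBA1B. The ends of TUBB and TUBB2A, whose coding sequences shared 84.9%, reached 73.7%, so these values do not rank how closely the ends are related.

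The pairs TUBA1A and TUBA1B, and TUBB2A and TUBB2B, are set out by their promoters, as the 100 bases before the RefSeq start (GRCh38.p14, all 4 on the minus strand), because 1 gene of each pair (TUBA1A, TUBB2A) was called between the groups and the other (TUBA1B, TUBB2B) was not. Capitals mark 3 promoter words on either strand, the CCAAT box (letters CCAAT), the TATA box (letters TATAAA) and the GC box (letters GGGCGG). Only these exact letters were searched, so near forms, such as the letters tatata before TUBA1A, were neither marked nor counted.
TUBA1A, chr12:49189081-49189180: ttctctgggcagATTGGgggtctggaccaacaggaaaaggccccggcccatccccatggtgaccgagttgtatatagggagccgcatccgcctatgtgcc
TUBA1B, chr12:49131396-49131495: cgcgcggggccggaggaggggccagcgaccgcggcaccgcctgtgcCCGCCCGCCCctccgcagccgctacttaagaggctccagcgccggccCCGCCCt
TUBB2A, chr6:3157545-3157644: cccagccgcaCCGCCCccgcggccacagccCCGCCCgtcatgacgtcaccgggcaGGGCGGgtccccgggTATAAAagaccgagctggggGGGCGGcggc
TUBB2B, chr6:3227654-3227753: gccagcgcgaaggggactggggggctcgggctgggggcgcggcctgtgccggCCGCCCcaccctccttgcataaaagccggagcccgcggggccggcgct
RefSeq gave 15 starts for the 10 genes. In the 250 bases before them, the CCAAT box was found at 9 of 15 starts, the GC box at 9 of 15 and the TATA box at 1 of 15, that of TUBB2A. Neighbouring TUBA1C starts overlapped in these bases, so the same CCAAT box was counted more than once. By gene, the CCAAT box was found for 7 of 10, the GC box for 8 of 10 and the TATA box for 1 of 10. Among all 35116 RefSeq promoters in the table the shares, in the same order, were 32.0%, 42.6% and 10.7%, with no test made of the differences. These are shares of starts, so they stand beside the counts by start. The counts by gene take a box at any start of a gene, and no such background was made for them. The 2 sites of TUBA1A in its 250 bases were both CCAAT boxes, and the 3 of TUBA1B were all GC boxes.

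Levels were CPM values, counts scaled to a common library size by TMM. A 3′ method counts transcript ends, so the counts were not divided by transcript length when isotypes were set side by side. In bulk libraries, fewer cells with a transcript and fewer transcripts per cell cannot be told apart. Library totals ran from 5881366 to 6914302 counts in siGLUT2 and from 5654957 to 8455963 in scrambled cells. Genes detected numbered between 13433 and 13891 in siGLUT2 libraries and between 14844 and 15036 in scrambled libraries, and mitochondrially encoded counts took 7.33% ± 0.265 of all counts in siGLUT2 (SD, n = 3) and 5.17% ± 0.264 in scrambled libraries (SD, n = 4). Neither measure overlapped between the groups, and their part in the results below was not tested. Of 12 proximal tubule markers, 3 (MME, GGT1 and SLC5A2) averaged 1 CPM or more, while LRP2, SLC22A6 and SLC22A8 were at 0 in every library. The summed level of the 12 markers was 93.1 to 103.7 CPM in siGLUT2 and 52.6 to 71.1 CPM in scrambled cells, and MME (adjusted p = 0.00626) and GGT1 (adjusted p = 0.0074) were called higher. All 8 simple epithelium markers averaged 1 CPM or more. KRT7, KRT8, KRT18 and KRT19 were called lower. EPCAM, CDH1, CDH2 and PAX8 were not called (log2 fold changes, siGLUT2 over scrambled, of 0.01, -1.94, 0.15 and -0.13). The summed level of the list was 1123 to 1281 CPM in siGLUT2 and 1605 to 1725 CPM in scrambled cells. The part of these marker changes in the results below was not tested.

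Of the 10 isotypes, 3 were higher (TUBA1A, TUBA4A and TUBB2A) and 3 were lower (TUBB, TUBB3 and TUBB4B) in siGLUT2 than in scrambled cells, and TUBA1B, TUBA1C, TUBB2B and TUBB6 were not called. A call required an adjusted p below 0.05 in edgeR's quasi-likelihood test over 12404 genes. In that comparison 28.3% of all genes were called, 13.9% as higher and 14.4% as lower. Separate CPM ranges in siGLUT2 and scrambled libraries were seen for 6 of the 10 isotypes, the same 6 that were called. Among all 12404 genes tested, called or not, the share with separate ranges was 35.1%. The median log2 fold change (siGLUT2 over scrambled) was 0.19 over the 4 alpha isotypes and -0.27 over the 6 beta isotypes, and it was -0.0029 over all genes tested. The 2 largest tubulin differences were rises of the minor isotypes TUBA1A and TUBB2A, and of the 3 most abundant isotypes (TUBA1B, TUBB and TUBA1C) TUBB was the one called.

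**Figure D1:**
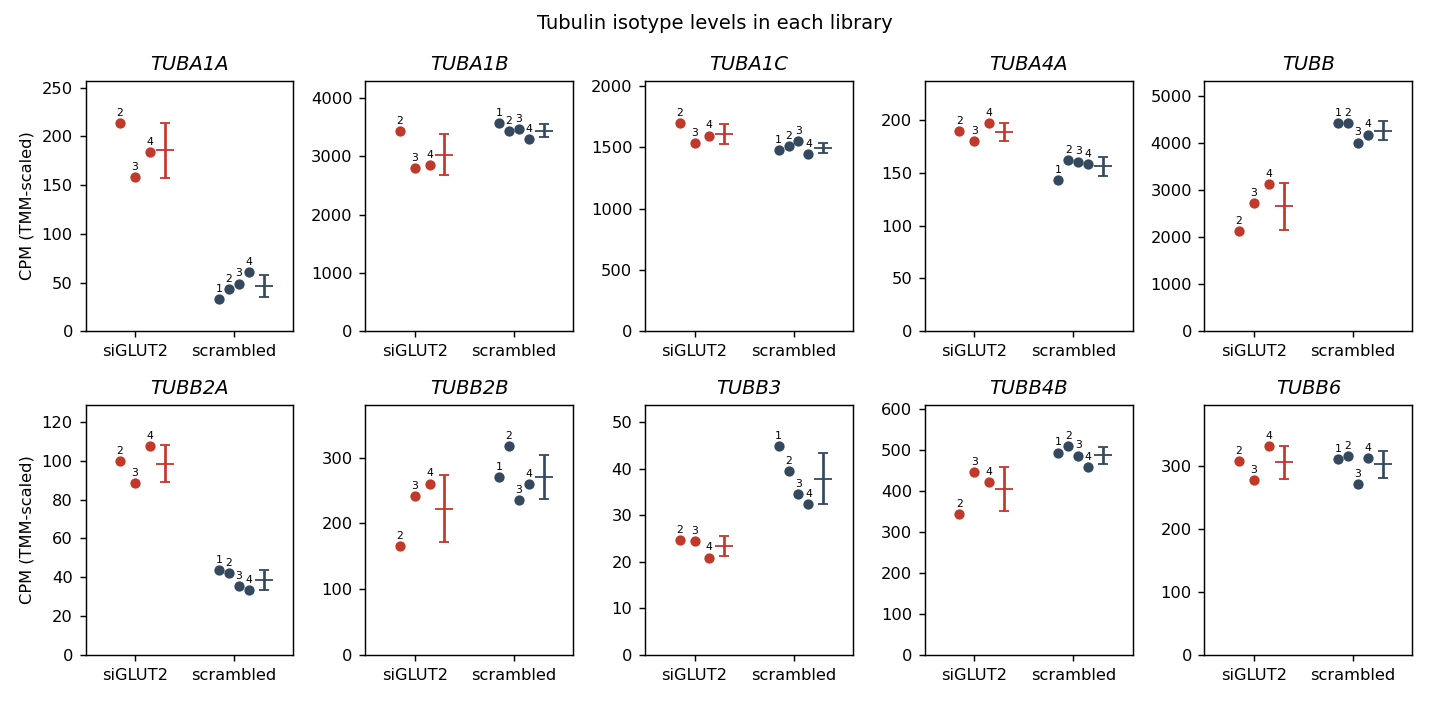
Level of each isotype (CPM scaled by TMM, linear axis from 0) in the 3 siGLUT2 libraries (red, left) and the 4 scrambled libraries (dark blue-grey, right); small numbers are replicate numbers, and the bars give the mean and SD. TUBA1A sits between 158 and 214 CPM in siGLUT2 cells and between 33.1 and 60.7 CPM in scrambled cells, while TUBB lies lower in all 3 siGLUT2 libraries than in any scrambled library.

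TUBA1A, TUBA1B and TUBA1C lie next to each other on chromosome 12 and encode the main alpha chains of dividing and neuronal cells. TUBA1A (chr12:49184796-49189324, minus strand, GRCh38), the alpha isotype best known from migrating and newly formed neurons, had 214, 158 and 184 CPM in the siGLUT2 libraries, against 33.1, 43.1, 48.8 and 60.7 CPM in the scrambled libraries. Every siGLUT2 library lay far above every scrambled one. The log2 fold change was 2.00 ± 0.15 (SE), a 4.01-fold rise (adjusted p = 2.7e-09). In absolute size it was above that of 98.0% of all genes tested.

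TUBA1B (chr12:49127782-49131397, minus strand) was the most abundant alpha isotype and ranked 18 among all genes by mean CPM. It had 3428, 2800 and 2851 CPM in siGLUT2 cells and 3575, 3432, 3465 and 3291 CPM in scrambled cells. siGLUT2 replicate 2 fell inside the scrambled range, and siGLUT2 replicates 3 and 4 lay below it. The log2 fold change of -0.19 ± 0.08 did not pass the test (adjusted p = 0.0726, unadjusted 95% interval -0.33 to -0.04). Without siGLUT2 replicate 2 the difference was -0.29 (adjusted p = 0.000396).

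TUBA1C (chr12:49188736-49274603, plus strand), an alpha isotype found in most tissues, had 1702, 1535 and 1596 CPM in siGLUT2 and 1479, 1508, 1551 and 1446 CPM in scrambled cells. The groups overlapped at siGLUT2 replicate 3. The log2 fold change was 0.11 ± 0.07 (adjusted p = 0.281), with an unadjusted 95% interval of -0.03 to 0.24.

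TUBA4A (chr2:219249711-219278170, minus strand) differs from the other 3 alpha genes in ending without a tyrosine codon, and is abundant in platelets and nervous tissue. It had 190, 181 and 198 CPM in siGLUT2 libraries and 143, 163, 161 and 158 CPM in scrambled libraries, with no overlap. The rise was small (log2 fold change 0.28 ± 0.09, adjusted p = 0.0304). The call was lost without siGLUT2 replicate 4 (adjusted p = 0.0756) and without scrambled replicate 1 (0.108) or 4 (0.0635). STK16 lies over its last exon on the opposite strand, and had 15.9 CPM in siGLUT2 and 13.8 CPM in scrambled cells.

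Summed over the 4 isotypes, alpha tubulin had 5534, 4673 and 4828 CPM in siGLUT2 libraries and 5231, 5146, 5225 and 4955 CPM in scrambled libraries. The groups overlapped, with siGLUT2 replicate 2 the highest library and siGLUT2 replicate 3 the lowest. What differed was the make-up of the class. TUBA1A took 3.69% ± 0.262 (SD, n = 3) of alpha counts in siGLUT2 cells and 0.907% ± 0.246 (SD, n = 4) in scrambled cells. TUBA1B took 60.3% ± 1.496 in siGLUT2 cells and 66.9% ± 0.956 in scrambled cells, and TUBA1C 32.2% ± 1.27 in siGLUT2 and 29.1% ± 0.597 in scrambled cells. TUBA4A had 3.79% ± 0.339 in siGLUT2 and 3.04% ± 0.207 in scrambled cells. None of the 4 shares overlapped between the groups. For every 100 counts of TUBA1B there were 6.12 ± 0.416 of TUBA1A in siGLUT2 cells and 1.36 ± 0.382 in scrambled cells. These shares are a description, without a test.

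Beta tubulin was led by TUBB (chr6:30720201-30725426, plus strand), the beta isotype of most dividing cells, which ranked 16 among all genes by mean CPM. It had 2125, 2729 and 3126 CPM in siGLUT2 libraries, against 4435, 4423, 4014 and 4185 CPM in scrambled libraries. The groups were well apart, and siGLUT2 replicate 2 was the lowest. This was a log2 fold change of -0.68 ± 0.09, a ratio of 0.624 (adjusted p = 1.0e-05). Without siGLUT2 replicate 2 it was -0.54 (adjusted p = 2.1e-07).

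TUBB2A (chr6:3153669-3157526, minus strand), a beta isotype abundant in brain, went the other way. It had 99.8, 88.6 and 107 CPM in siGLUT2 libraries, against 43.9, 42.2, 35.5 and 33.3 CPM in scrambled libraries. The lowest siGLUT2 library was above the highest scrambled library. The rise was 2.54-fold (log2 fold change 1.34 ± 0.14, adjusted p = 2.3e-07).

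TUBB2B (chr6:3224261-3231730, minus strand), its near-identical neighbour, known from neuronal migration, was the more abundant of this pair. It had 165, 242 and 260 CPM in siGLUT2 and 270, 317, 236 and 259 CPM in scrambled cells. Only siGLUT2 replicate 2 lay outside the scrambled range, below it. The log2 fold change of -0.28 ± 0.13 did not pass (adjusted p = 0.103, unadjusted 95% interval -0.53 to -0.03), but it was called lower without siGLUT2 replicate 4 (-0.41, adjusted p = 0.0221). Without siGLUT2 replicate 2 it was -0.11 (adjusted p = 0.437). The pair together summed to 321 ± 52.0 CPM (SD, n = 3) in siGLUT2 and 309 ± 37.6 CPM (SD, n = 4) in scrambled cells, with overlap. For every 100 counts of TUBB2B there were 46.1 ± 12.6 of TUBB2A in siGLUT2 and 14.4 ± 1.57 in scrambled cells.

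TUBB3 (chr16:89921392-89938761, plus strand), used widely as a marker of neurons and expressed in many carcinoma lines, had the lowest mean CPM of the 10 isotypes. In scrambled cells its mean of 37.9 CPM was close to the 38.7 CPM of TUBB2A. AC092143.1 lies over the last exon of TUBB3 on the same strand. Reads that fit both genes may have been left uncounted, so the level and rank of TUBB3 may be too low, which was not tested. TUBB3 had 24.7, 24.5 and 21.0 CPM in siGLUT2 and 44.8, 39.6, 34.7 and 32.5 CPM in scrambled cells, without overlap. Its level fell (log2 fold change -0.70 ± 0.18, adjusted p = 0.00639). Of 10 neuron markers, 3 averaged 1 CPM or more. These were SNAP25, NEFM and GAP43, and 0 of them were called (log2 fold changes -0.01, 0.91 and 1.43). ELAVL3, ELAVL4, DCX and STMN2 were at 0 in every library. The summed level of the list was 10.4 to 14.1 CPM in siGLUT2 and 8.35 to 10.5 CPM in scrambled cells, with overlap.

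TUBB4B (chr9:137241213-137243707, plus strand), a broadly expressed isotype that is prominent in cilia, had 345, 447 and 423 CPM in siGLUT2 and 494, 509, 487 and 459 CPM in scrambled cells. The groups did not overlap, with siGLUT2 replicate 3 just below scrambled replicate 4. The fall was small (log2 fold change -0.27 ± 0.09, adjusted p = 0.0298). It no longer passed without siGLUT2 replicate 2 (-0.17, adjusted p = 0.1001), or without scrambled replicate 1 (adjusted p = 0.0878), 2 (0.0855) or 3 (0.0666).

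TUBB6 (chr18:12307669-12344320, plus strand), a broadly expressed beta isotype whose coding sequence was 81.3% identical to that of TUBB, the lowest value of any pair within a class, had 307, 277 and 330 CPM in siGLUT2 and 310, 316, 271 and 312 CPM in scrambled cells. The groups overlapped, with siGLUT2 replicate 4 the highest library. It showed a log2 fold change of 0.01 ± 0.09 (adjusted p = 0.928), with an unadjusted 95% interval of -0.16 to 0.19.

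**Figure D2:**
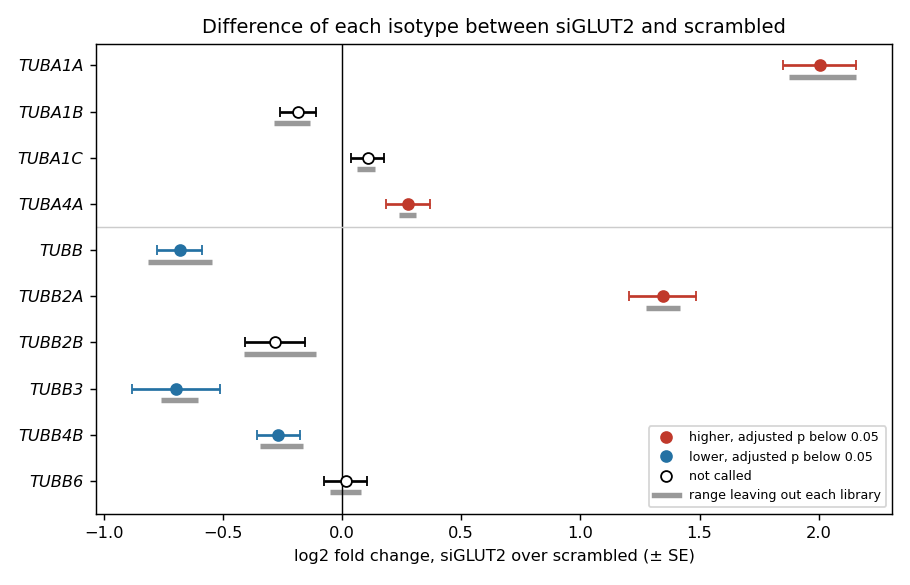
Log2 fold change (siGLUT2 over scrambled) of each isotype with its SE, alpha isotypes above the line and beta isotypes under it; filled red or blue points passed an adjusted p of 0.05 and open points did not, and the grey bars span the values obtained by leaving out each library in turn. TUBA1A at 2.00 and TUBB2A at 1.34 stand apart from the other 8, and the grey bar of TUBB6 crosses 0.

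Summed over the 6 isotypes, beta tubulin had 3067, 3808 and 4268 CPM in siGLUT2 libraries and 5599, 5647, 5078 and 5281 CPM in scrambled libraries. All siGLUT2 libraries were below all scrambled ones, at 0.688 of the scrambled mean, or 0.748 without siGLUT2 replicate 2. TUBB, with 2660 ± 504 CPM in siGLUT2 (SD, n = 3) and 4264 ± 203 CPM in scrambled cells (SD, n = 4), made up most of it. Its share of beta counts was 71.4% ± 1.99 (SD, n = 3) in siGLUT2 and 79.0% ± 0.429 (SD, n = 4) in scrambled cells. TUBB6, whose own level was not called, took 8.35% ± 1.47 of beta counts in siGLUT2 and 5.59% ± 0.239 in scrambled cells. TUBB2A took 2.70% ± 0.489 in siGLUT2 and 0.716% ± 0.0658 in scrambled cells. TUBB4B, whose level fell, took 10.96% ± 0.945 in siGLUT2 and 9.03% ± 0.390 in scrambled cells. The shares of TUBB2B and TUBB3 overlapped between the groups.

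**Figure D3:**
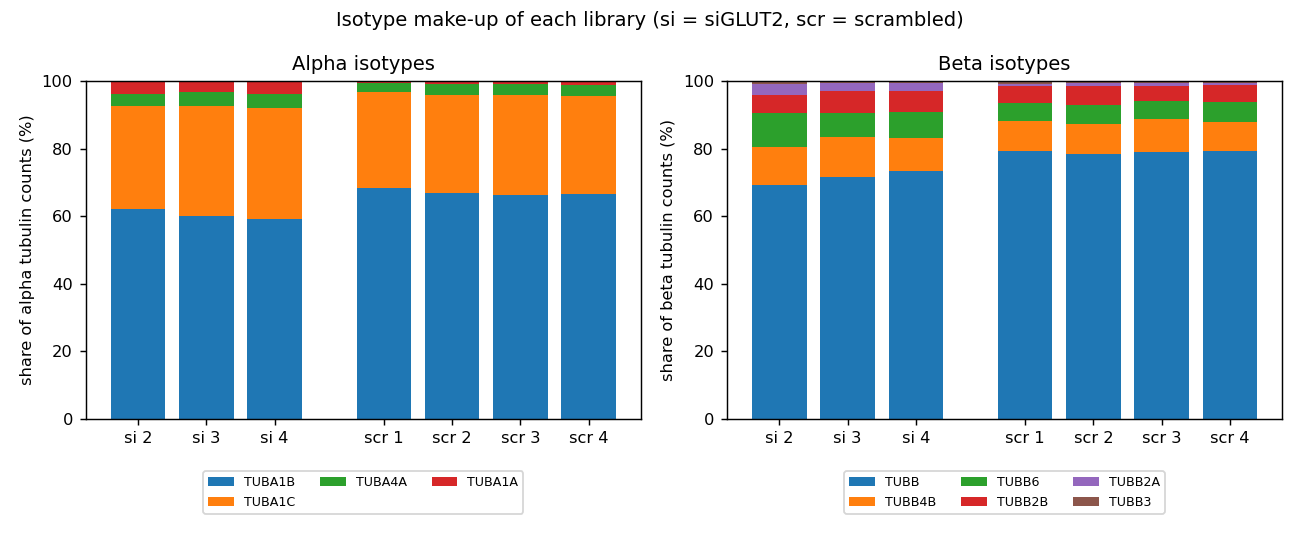
Share (%) of each isotype in the alpha counts (left panel) and beta counts (right panel) of every library, siGLUT2 (si) left of scrambled (scr), each bar summing to 100%. TUBB takes 69.3% to 73.2% of beta counts in siGLUT2 libraries and 78.3% to 79.2% in scrambled libraries, and the TUBA1A segment is wider in all 3 siGLUT2 libraries.

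The ratio of summed alpha to summed beta counts was 1.80, 1.23 and 1.13 in the siGLUT2 libraries and 0.934, 0.911, 1.03 and 0.938 in the scrambled libraries. It was highest in siGLUT2 replicate 2, and all 3 siGLUT2 values lay above the scrambled range. The mean was 1.39 in siGLUT2 (1.18 without replicate 2) and 0.953 in scrambled cells. All 10 isotypes together took 0.871% ± 0.0288 (SD, n = 3) of all counts in siGLUT2 and 1.05% ± 0.0249 (SD, n = 4) in scrambled cells, again without overlap. A ratio of counts of transcript ends is no ratio of proteins.

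**Figure D4:**
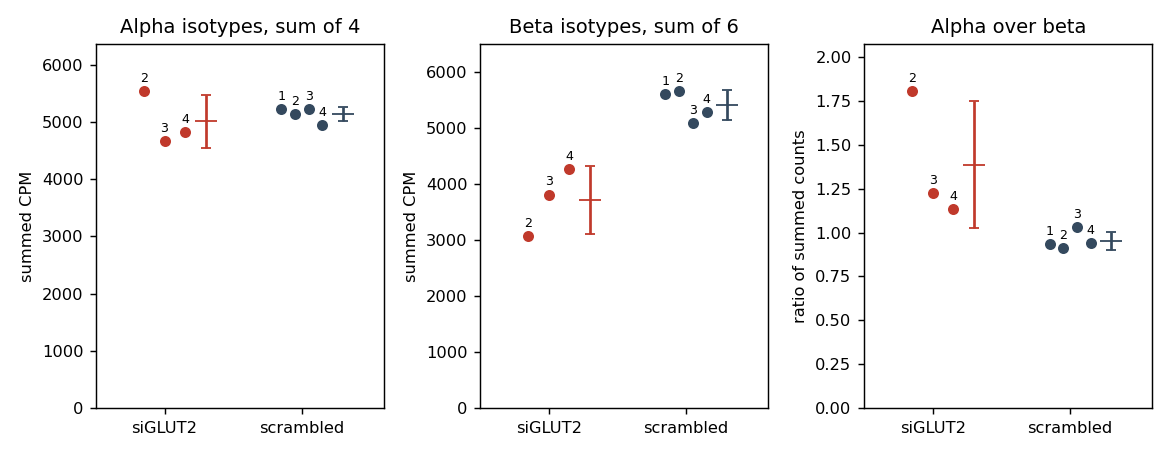
Summed CPM of the 4 alpha isotypes (left), of the 6 beta isotypes (middle) and the ratio of alpha to beta counts (right) in each library, with siGLUT2 left of scrambled and bars for mean and SD. The alpha sums overlap between the groups, the beta sums do not, and siGLUT2 replicate 2 has the highest ratio at 1.80.

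Among themselves, the profiles of the isotypes over the 7 libraries were compared as the root mean square difference of log2 CPM, each centred on its own mean. TUBA1C and TUBA4A were nearest (0.107), and TUBA1A and TUBB3 farthest apart (1.39). TUBA1A and TUBB2A, the 2 largest risers, differed by 0.495. Among 6942 other genes that averaged 20 CPM or more, the profiles nearest to TUBA1B were those of PRMT5 (0.0226), RPL35A (0.0271) and MTPN (0.0362). Those nearest to TUBB were RNPS1 (0.0483), DOCK1 (0.0488) and RNPEP (0.0583). The profiles hold the difference between the groups, so these distances in part restate the fold changes and are no separate result. The log2 fold changes of RNPS1, DOCK1 and RNPEP were -0.67, -0.68 and -0.71, beside -0.68 for TUBB.

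Part of the transcript ends is shared with other genes. In windows of 100 bases over the last 400 bases of the reference transcripts, TUBA1A, TUBA1C, TUBB, TUBB2B and TUBB6 had 0 windows found exactly in another gene's transcript on either strand. TUBB2A shared 34.2% of its windows with TUBB2B, TUBB3, TUBB4B or AC092143.1. TUBB4B shared 14.6% with TUBB2A, TUBB2B, TUBB3 or AC092143.1, and 22.9% once its opposite-strand neighbour FAM166A is included. TUBA1B shared 13.3% with genes elsewhere, TUBA1C among them, and all of its windows were shared once AC011603.2, which lies over it on the opposite strand, was included. TUBA4A shared all of its windows with STK16, and TUBB3 shared 98.3% with AC092143.1, which lies over it on the same strand. The counts of TUBA1B, TUBA4A, TUBB2A, TUBB3 and TUBB4B are uncertain to that extent. For the genes shared from the opposite strand (with TUBA1B, TUBA4A and TUBB4B) this depends on the strand setting of the counting, which no source used here gives. AC092143.1 and FAM166A had 0 counts in all libraries, and AC011603.2 had 0 in siGLUT2 and 3 in scrambled libraries. These low counts cannot show that the isotypes lost no reads, because reads that fit both genes can be left out of both counts. GENCODE release 29 lists 37 alpha and beta tubulin pseudogenes, and 0 rows of the table were named for one.

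Of 8 other alpha and beta isotypes, 6 (TUBA3C, TUBA3D, TUBA3E, TUBAL3, TUBB1 and TUBB8) had 0 counts in all 7 libraries. TUBB4A had counts of 7, 10 and 23 in siGLUT2 and 6, 7, 9 and 4 in scrambled libraries, and TUBA8 had 0, 5 and 15 in siGLUT2 and 0, 15, 10 and 2 in scrambled libraries. Neither passed the filter on low counts, and no difference between the groups was tested for them.

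Genes that fold and assemble tubulin were read from the same fit. For this list and those below, the background was 13.9% of all genes called higher and 14.4% called lower. Whether any list departed from these shares was not tested. Prefoldin and the ring-shaped CCT chaperonin fold new tubulin chains. Of 16 such genes tested, 4 fell and 0 rose, with a median log2 fold change of -0.04. The 0 stood beside 2 rises at an unadjusted p under 0.05 in edgeR, 1 called by DESeq2 and 1 by limma-voom. The 4 were CCT subunits: TCP1 (-0.77 ± 0.10, adjusted p = 3.7e-06), CCT3 (-0.68 ± 0.08, 1.3e-06), CCT7 (-0.63 ± 0.09, 1.5e-05) and CCT8 (-0.35 ± 0.11, 0.0249). The other CCT subunits, CCT2, CCT4, CCT5 and CCT6A, were not called in edgeR's test (0.04, -0.21, 0.05 and 0.07). TCP1 averaged 120 ± 6.90 CPM in siGLUT2 (SD, n = 3) and 206 ± 14.7 CPM in scrambled cells (SD, n = 4). CCT8 was lost without siGLUT2 replicate 4 (-0.21, adjusted p = 0.134) and without scrambled replicate 1, 2 or 4 (adjusted p = 0.1002, 0.0502 and 0.0675).

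The tubulin cofactors join the folded chains into a dimer and can take it apart again. Of 6 tested, 1 rose and 2 fell (median -0.15). ARL2, the small GTPase of that machinery, had 49.4 ± 4.405 CPM in siGLUT2 and 32.2 ± 2.16 CPM in scrambled cells (log2 fold change 0.62 ± 0.16, adjusted p = 0.00484). TBCD, the cofactor that binds beta tubulin, had 42.9 ± 11.3 CPM in siGLUT2 and 82.9 ± 10.9 CPM in scrambled cells (-0.95 ± 0.17, adjusted p = 0.000158). TBCB, which binds alpha tubulin, overlapped between the groups (-0.33 ± 0.12, adjusted p = 0.0483), and was lost on leaving out any library except siGLUT2 replicate 4, at adjusted p values between 0.0875 and 0.201.

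Of 7 genes of the tubulin mRNA autoregulation pathway (TTC5, SCAPER and 5 CCR4-NOT genes), 0 were called in edgeR's test, with a median of 0.01. At an unadjusted p under 0.05, 0 were higher and 3 lower. DESeq2 called 1 of them (CNOT10, lower) and limma-voom 0. CNOT1, the scaffold of the deadenylase, had -0.24 ± 0.10 (adjusted p = 0.0744) and CNOT7, one of its nucleases, -0.21 ± 0.10 (adjusted p = 0.116). CNOT1 passed without siGLUT2 replicate 4 (adjusted p = 0.00764), and CNOT7 without siGLUT2 replicate 2 (adjusted p = 0.0416).

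The gamma-tubulin ring complex starts new microtubules. Of 14 genes of that complex and of other tubulins, 2 rose and 2 fell (median -0.15). CDK5RAP2, which activates the complex at centrosomes, fell by 0.50 ± 0.13 on the log2 scale (adjusted p = 0.00544). NEDD1, which recruits the complex to the spindle, had -0.54 ± 0.19 (adjusted p = 0.0384). TUBD1, delta tubulin of the centriole, had 0.69 ± 0.24 (adjusted p = 0.0319), and MZT1, a small subunit, 0.57 ± 0.21 (adjusted p = 0.0456). MZT1 overlapped between the groups. NEDD1 missed the threshold without siGLUT2 replicate 4 or any 1 scrambled library (adjusted p up to 0.172). TUBD1 missed it without siGLUT2 replicate 3 or 4 or scrambled replicate 1, 3 or 4 (up to 0.0886), and MZT1 without siGLUT2 replicate 2 or 3 or scrambled replicate 1, 2 or 3 (up to 0.191).

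Of 18 enzymes that modify tubulin, 0 rose and 1 fell (median -0.13). At an unadjusted p under 0.05, 2 were higher, and DESeq2 called 1 of these while limma-voom called 0. TTL, which puts the last tyrosine back on alpha tubulin, had 117 ± 6.65 CPM in siGLUT2 and 96.4 ± 4.59 CPM in scrambled cells, without overlap (log2 fold change 0.28 ± 0.11, adjusted p = 0.0549). It passed in DESeq2 (adjusted p = 0.0389) and without siGLUT2 replicate 4 (0.0351). TTLL12 had 47.8 ± 32.3 CPM in siGLUT2 and 58.5 ± 4.60 CPM in scrambled cells (-0.29 ± 0.32, adjusted p = 0.562), and was called lower without siGLUT2 replicate 4 (-0.94, adjusted p = 0.00212). The 1 that fell was AGBL5, a carboxypeptidase that trims glutamates from tubulin tails (-0.63 ± 0.20, adjusted p = 0.0196), which the rule for naming genes did not take and which is named after its value was seen.

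Among 10 tested stathmins and genes that sever or depolymerise microtubules, 0 rose and 2 fell (median -0.17). No rise was seen at an unadjusted p under 0.05 either, nor with DESeq2 or limma-voom (0 in each). KIF2C, a mitotic depolymerase, had 59.1 ± 8.71 CPM in siGLUT2 and 119 ± 4.97 CPM in scrambled cells (log2 fold change -1.01 ± 0.12, adjusted p = 2.4e-06). KATNAL1, a severing enzyme, had -0.72 ± 0.25 (adjusted p = 0.0369) and was lost without siGLUT2 replicate 2 or 3 and without scrambled replicate 3 or 4, at adjusted p values up to 0.189.

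Of 28 tested proteins that bind the microtubule lattice or its ends, the longest list, 7 rose and 4 fell (median 0.01), where 13.9% of all genes were called higher and 14.4% lower. MAP1B, a lattice-binding protein, had 266 ± 26.9 CPM in siGLUT2 and 178 ± 12.1 CPM in scrambled cells (log2 fold change 0.59 ± 0.10, adjusted p = 7.6e-05). CAMSAP2, which holds free minus ends in epithelial cells, had 140 ± 23.9 CPM in siGLUT2 and 88.4 ± 4.41 CPM in scrambled cells (0.66 ± 0.12, adjusted p = 0.000217). MAPRE2, an end-binding protein, fell (-0.87 ± 0.16, adjusted p = 0.000306). MAP7D2, of a family that recruits kinesin-1, had 0.785 ± 0.0662 CPM in siGLUT2 and 8.51 ± 1.87 CPM in scrambled cells (-3.41 ± 0.51, adjusted p = 2.9e-05), on a total of 15 counts in siGLUT2 and 245 in scrambled libraries.

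Of 26 genes of the motors kinesin-1 and dynein with its dynactin partner, 4 rose and 8 fell (median -0.02). NDEL1, a dynein regulator, had 55.5 ± 11.2 CPM in siGLUT2 and 23.6 ± 2.46 CPM in scrambled cells (log2 fold change 1.23 ± 0.18, adjusted p = 1.4e-05). DYNLRB1, a dynein light chain, had 142 ± 35.1 CPM in siGLUT2 and 276 ± 12.9 CPM in scrambled cells (-0.95 ± 0.12, adjusted p = 4.4e-06). DCTN1, the large dynactin subunit, had -0.67 ± 0.11 (adjusted p = 4.4e-05), and DYNC1LI2, a light intermediate chain, -0.62 ± 0.10 (adjusted p = 5.9e-05).

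**Figure D5:**
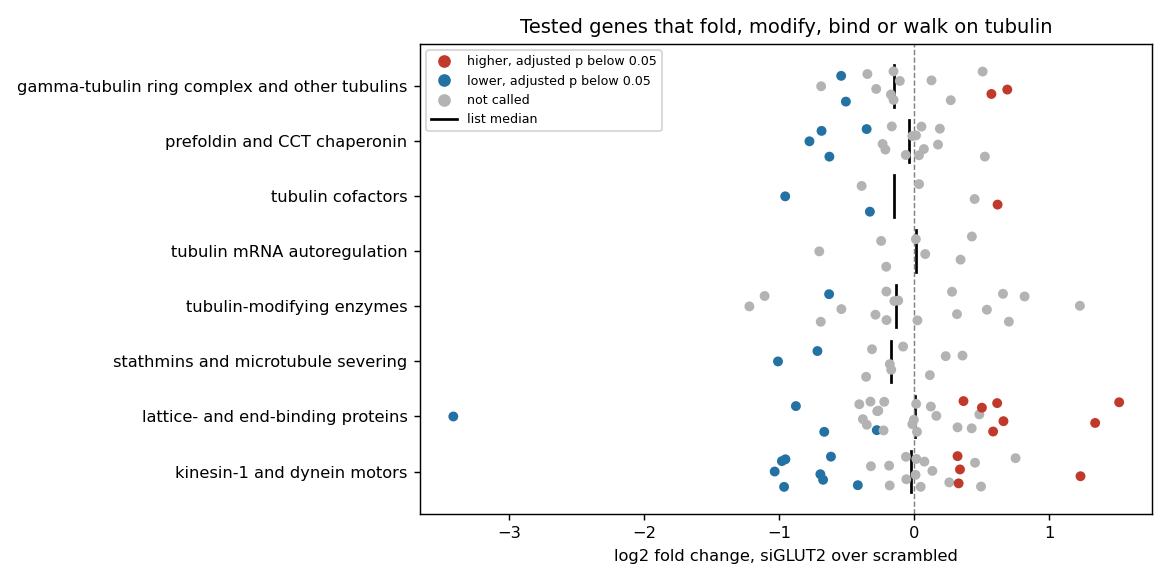
Log2 fold change (siGLUT2 over scrambled) of every tested gene of the 8 lists, with the list median as a black bar; red and blue points passed an adjusted p of 0.05, grey points did not, and the vertical spread within a row carries no value. Blue points outnumber red ones among the motors (8 and 4), red ones outnumber blue among the lattice- and end-binding proteins (7 and 4), and the point at -3.41 is MAP7D2.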

How the data were processed

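Libraries came from 125 ng of RNA through a commercial 3′ digital mRNA-seq protocol and were read single-end for 100 cycles, per the labels' protocols. The authors deposited raw counts per gene for 7 libraries, used here as they stand. The submitters' processing notes name STAR, HTSeq, edgeR and hg38. No source used here gives the annotation, the strand setting or any use of molecular identifiers. The p-values reflect variation among these 7 libraries.

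All genes were fitted with edgeR 4.0.16 in R 4.3.3, with filterByExpr at its count minimum of 10 and total minimum of 15, TMM, a robust quasi-likelihood test and Benjamini-Hochberg adjustment over 12404 genes at a threshold of 0.05. SE is the log2 fold change over the root of F, and 95% intervals are normal. DESeq2 1.42.0, limma-voom 3.58.1, other scalings and filters, thinning, a replicate block and leaving out each library were alternatives. The fit was tested on simulated data.

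The members, gene lists and markers were chosen with earlier results of these data known. Named were all members, the 4 best called genes of each list by adjusted p (where fewer than 2 were called, 2 by highest CPM), and 3 nearest profiles for TUBA1B and TUBB. The tail sequences of the alpha isotypes are not reported here.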

Additional observations from a re-analysis of the deposited data

Results flagged for a closer look

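The TUBB6 level of scrambled replicate 3, 270.7 CPM, lay farther from the other 3 scrambled libraries than a test for a single stray value in a group of 4 allows at the 95% level. The others were at 310, 316 and 312 CPM. It was the only one of the 10 isotypes with such a library among the scrambled ones, and chance gives about 1 in 20 groups. siGLUT2, with 3 libraries, was not tested in this way.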

How the results depend on the processing

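TUBA1A, TUBB and TUBB2A kept their direction and call in all 19 alternatives. Of the 190 values of the 10 isotypes, 169 kept direction and call, 13 lost the call, 6 gained one and 2 reversed. The reversals were of TUBB6, which ranged from -0.0499 without siGLUT2 replicate 4 to 0.0779 without siGLUT2 replicate 3 and was at -0.0312 without scrambled replicate 3. TTLL12 ranged from -0.935 without siGLUT2 replicate 4 to 0.0853 without siGLUT2 replicate 2. Without a filter on low counts 5 isotypes were lower, TUBA1B (adjusted p = 0.0353) and TUBB2B (0.0199) being gained, while TUBA4A was lost (0.0563). limma-voom also called TUBA1B lower (0.0177). Leaving out each library gave 2 to 3 isotypes higher and 2 to 4 lower, and 10 to 16 list genes higher and 17 to 25 lower. Over all genes, the same settings gave 1384 to 1815 higher and 1404 to 1963 lower. At an adjusted p of 0.01 in edgeR's test, 9 list genes were higher, against 14 at 0.05. All genes higher went from 1723 to 1097 with that threshold, and TUBA4A and TUBB4B lost their calls. The replicate block, fitted without scrambled replicate 1, which has no siGLUT2 partner number, left 1 isotype lower, TUBB, with TUBB3 at an adjusted p of 0.0518, TUBB4B at 0.0946 and TUBA4A at 0.144. Leaving out that library alone already lost TUBB4B (0.0878) and TUBA4A (0.108), so TUBB3 was the call lost with the block added. The block also put SLC2A2 at -6.57 (adjusted p = 0.0920); leaving out each library put SLC2A2 between -6.84 and -6.36. The cause of these changes was not tested. Libraries with the same number showed no shared deviation (r = -0.0016, 0.0465 and -0.0312). Those with different numbers had r between -0.0642 and 0.0562. A lack of shared deviation cannot show that libraries were not prepared as pairs, and the labels do not say.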
